A study of Mus musculus with 2 samples.

Results

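The genes described are 5 enzyme and helper genes of eicosanoid synthesis that taste cells share with tuft cells, which sense chemicals in other epithelia: Alox5, Alox5ap and Ltc4s of the leukotriene branch, and Ptgs1 and Hpgds of the prostaglandin branch. All 5 were listed in both count tables, among 21888 genes listed in either. They were followed in sorted cells of adult α-gustducin-GFP mice on the C57BL/6J background, in which green fluorescent protein marks the cells that make α-gustducin, a G protein subunit of taste signalling whose gene is Gnat3. There was 1 library from the fungiform papillae of the front of the tongue (FP) and 1 from its back, where the circumvallate papilla (CV) lies, and no other treatment or genotype. The sources used here do not give which animals, or how many, went into each library. Cells were kept where they had more than 500 genes and a value of ln(1 + Gnat3 counts per 10000) over 0.9, which left 21 of 29 barcodes for FP and 32 of 61 for CV, 53 of 90 in all.

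Eicosanoids are short-lived lipid signals made from arachidonic acid, which phospholipases and other lipases free from membrane lipids. In the leukotriene branch, the 5-lipoxygenase encoded by Alox5 acts with the membrane protein FLAP, encoded by Alox5ap, to make leukotriene A4, and the leukotriene C4 synthase encoded by Ltc4s joins it to glutathione, which starts the cysteinyl leukotrienes. In the prostaglandin branch, cyclooxygenase-1, encoded by Ptgs1, makes prostaglandin H2, and the hematopoietic prostaglandin D synthase encoded by Hpgds turns it into prostaglandin D2. Tuft cells of the intestine and airways are known for carrying genes of both branches, and their cysteinyl leukotrienes and prostaglandin D2 act on neighbouring immune cells and on the epithelium. The same genes are also active in mast cells and macrophages.

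The kept FP cells summed to 22646953 counts (193718 to 3190340 per cell) and the kept CV cells to 29535917 counts (32726 to 3447628 per cell), and 10 CV cells lay below the shallowest FP cell. No barcode number was shared by the libraries. With 1 library per papilla no replicate check was possible and the difference between the papillae was not tested. Every interval is a 95% interval for counting error only, and it is too narrow if PCR copies were counted. All 8 type II taste cell markers had counts in both libraries, with summed levels of 4887 to 27189.9 CPM (counts in 1000000 counts of the cell) in FP cells and 263 to 35988 CPM in CV cells. Gnat3, used to keep the cells, is 1 of the 8, so part of each sum followed from the choice of cells. Not every marker was high in every cell: Pou2f3 reached 50 CPM in 15 FP and 14 CV cells, and Tas1r3 in 8 FP and 7 CV cells. The leukocyte genes Ptprc and Fcer1g and the macrophage gene Cd68 had 0 counts in the kept cells of both libraries. Of 4 macrophage markers with a row in the tables, all had 0 counts in FP, while in CV their summed level was 7.58 CPM and passed 50 CPM in 1 cell, at 180.0 CPM. Of 8 leukocyte markers only 3 had a row in the tables, the third being Lcp1, an actin-bundling protein gene, at 315 CPM in FP against 480.5 CPM in CV. The T cell list, with 3 of 5 markers in the tables, summed to at most 3.59 CPM in an FP cell and 49.9 CPM in a CV cell. None of the 8 mast cell markers had a row in the tables analysed here, so that list gives no value. Mitochondrial counts had a median of 11.1% of a cell's total in FP and 12.5% in CV, and reached 68.0% in FP and 88.6% in CV.

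The promoters of 3 members are printed because they hold a motif of the POU or ETS factor families, to which Pou2f3 (404 CPM in FP, 350.2 CPM in CV) and Spib (33.7 CPM in FP, 102 CPM in CV) belong. Sequences are from RefSeq on GRCm38.p6, the assembly also called mm10, and run from 250 bases before to 50 bases after the annotated start, where the first transcribed base is position 1. The table held 4 of the 5 genes, with no entry for Alox5ap. The motifs searched, 3 in all, were looked for on both strands. They were the octamer ATGCAAAT bound by POU factors such as Pou2f3, the longer ETS motif GAGGAAG, called the ETS core here, and the TATA box TATAAA. Only the full letters counted as a match, so shorter ETS stretches such as GGAA were not searched and are not marked. Capitals mark each match. The Hpgds promoter lies at chr6:65144681-65144980 on the minus strand, the Ptgs1 promoter at chr2:36230176-36230475 on the plus strand and the Ltc4s promoter at chr11:50238483-50238782 on the minus strand.
Hpgds: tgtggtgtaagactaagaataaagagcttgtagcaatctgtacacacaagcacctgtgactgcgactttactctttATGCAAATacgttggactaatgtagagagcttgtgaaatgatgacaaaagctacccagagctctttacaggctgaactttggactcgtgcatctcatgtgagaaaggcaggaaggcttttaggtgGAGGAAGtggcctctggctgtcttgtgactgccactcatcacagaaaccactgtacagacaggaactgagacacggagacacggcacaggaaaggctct
Ptgs1: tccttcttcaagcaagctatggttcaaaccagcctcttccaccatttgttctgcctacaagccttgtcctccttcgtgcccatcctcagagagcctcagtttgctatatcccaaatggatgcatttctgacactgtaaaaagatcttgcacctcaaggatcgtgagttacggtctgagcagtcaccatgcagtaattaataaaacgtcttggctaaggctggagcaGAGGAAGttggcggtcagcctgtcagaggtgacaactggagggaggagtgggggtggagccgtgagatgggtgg
Ltc4s: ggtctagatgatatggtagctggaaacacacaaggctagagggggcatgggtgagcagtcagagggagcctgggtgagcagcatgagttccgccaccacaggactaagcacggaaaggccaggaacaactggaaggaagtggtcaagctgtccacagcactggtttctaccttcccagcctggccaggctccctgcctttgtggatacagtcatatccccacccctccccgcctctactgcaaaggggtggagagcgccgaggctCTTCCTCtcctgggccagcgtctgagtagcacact
Hpgds alone held the octamer, at positions -174 to -167, which was present in 570 of 32851 RefSeq promoters of the same length (1.74%). The ETS core stood at positions -49 to -43 in Hpgds and -24 to -18 in Ptgs1, and on the other strand at positions 16 to 22 in Ltc4s. It was present in 13.6% of all promoters. The Alox5 promoter held none of the 3 motifs in this window, and the TATA box was found in none of the 4, against 13.6% of all promoters. These positions count from the RefSeq start, which is the GENCODE 5′ end for Ptgs1 and Alox5 but lies inside the GENCODE gene for Hpgds and Ltc4s. By the GENCODE bounds given further on, the Hpgds matches, at bases 65144897 to 65144904 (octamer) and 65144773 to 65144779 (ETS core), and the Ltc4s match, at bases 50238511 to 50238517, therefore fall within the gene. A match in letters is a description of the sequence and not a binding site.

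Alox5, the gene of the first committed step to leukotrienes, was nearly without counts in fungiform cells and stood well above single counts in a few circumvallate cells. Alox5 lies on chromosome 6 from 116410077 to 116461178, minus strand (mm10). It had 1 count in FP, in a cell where it made 2.09 CPM, against 1588 counts in CV. A gene was counted as on in a cell from 50 CPM upward, since single counts were scattered over many cells. By that rule Alox5 was on in 0 of 21 FP cells and in 4 of 32 CV cells (12.5%, 3.51 to 29.0). In FP, 3 cells of the total set the share that a count of 0 allows at 14.3% (Clopper-Pearson upper limit 16.1%). The interval of the CV share and the FP limit overlap, and neither covers differences between libraries. The 4 CV cells had 89.0, 180.0, 215 and 311 CPM and held 98.2% of the Alox5 counts of CV. The next CV cell had 7.28 CPM and 21 of 32 had none, so the CV cells fell into 4 high and 28 at or near 0. Pooled over cells the level was 0.0442 CPM in FP cells (0.00112 to 0.246) and 53.8 CPM in CV cells (51.2 to 56.5), a ratio of FP over CV of 0.000821 (0.0000208 to 0.00458), or -2.67 on the log2(CPM + 10) scale, on which differences of low genes shrink.

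Alox5ap, whose product hands arachidonic acid to the 5-lipoxygenase, was on in few cells of either papilla. The gene lies on chromosome 5 from 149264767 to 149288153, plus strand. It was on in 2 of 21 FP cells (9.52%, 1.17 to 30.4), at 115 and 381 CPM, against 7 of 32 CV cells (21.9%, 9.28 to 40.0), at 62.1, 82.1, 112, 163, 253, 293 and 360.4 CPM. Outside these cells it reached at most 5.16 CPM in FP cells and 10.1 CPM in CV cells. The higher FP cell lay above all 7 CV cells with the gene on, and 3 of those lay below both FP cells. The pooled level was 27.2 CPM in FP cells (25.1 to 29.4) and 67.1 CPM in CV cells (64.2 to 70.1), with a log2 ratio of -1.05. In FP 76.3% of the counts came from 1 cell, and without the highest cell of each library the log2 ratio was -1.78. It was under 2-fold with the mean of the per-cell levels (-0.61) and without a run of 5 CV barcodes with adjoining numbers (-0.89).

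Ltc4s, the gene of the enzyme that makes leukotriene C4, was the member on in most cells of both papillae. It lies on chromosome 11 from 50236461 to 50238616, minus strand. It was on in 18 of 21 FP cells (85.7%, 63.7 to 97.0), against 22 of 32 CV cells (68.8%, 50 to 83.9). The lowest, median and highest cells had 0, 309.7 and 1881 CPM in FP and 0, 182 and 1056 CPM in CV, and the libraries overlapped over nearly the whole range. The on cells started at 73.3 CPM in FP cells and 117 CPM in CV cells, and the highest cells below the limit had 6.97 CPM in FP cells and 15.9 CPM in CV cells. The pooled level was 475 CPM in FP cells (466 to 484) and 381 CPM in CV cells (374 to 388), a ratio of 1.25 (1.21 to 1.28) and a log2 ratio of 0.31. The order depended on the Gnat3 limit: without it the log2 ratio was -0.78, in a set that adds 7 keratinocyte-marked FP barcodes and a CV barcode with 8091 Ltc4s counts.

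Cells without Ltc4s on were among the shallower ones, though the gene was also on in some shallow cells, down to 263901 counts in FP and 42809 counts in CV. The 18 FP cells with Ltc4s on had a median of 1198687 counts and the other 3 had 211586, and in CV the medians were 1173652 in 22 on cells and 109922 in 10 off cells. The 3 FP cells without it had the largest mitochondrial shares of the kept FP cells, at 39.8, 54.1 and 68.0%. The 18 with it had at most 34.3%. Type II markers summed to a median of 9128 CPM in the 3 and 21674 CPM in the 18. In CV, mitochondrial shares ran from 6.97 to 88.6% without Ltc4s and from 1.63 to 52.9% with it. The type II medians there were 18936 and 18364 CPM. The part of RNA quality was not tested. Among cells of at least 1000000 counts, a limit chosen after the values were seen, Ltc4s was on in 13 of 13 cells from FP and in 14 of 14 from CV. Of 7 left-out FP barcodes in which keratinocyte markers outweighed type II markers, 6 had at least 1 Ltc4s count. The median depth of the 7 was 1679949 counts, but the highest Ltc4s level was 9.92 CPM and none was on. Krt13 ran from 22.8 to 62489 CPM in these barcodes, and whether their cell type makes Ltc4s was not tested. At least 1 count was seen in 90.5% of kept FP cells (median depth 1141644 counts) and 81.2% of kept CV cells (543963 counts), so a share at 1 count is not read as expression.

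**Figure D1:**
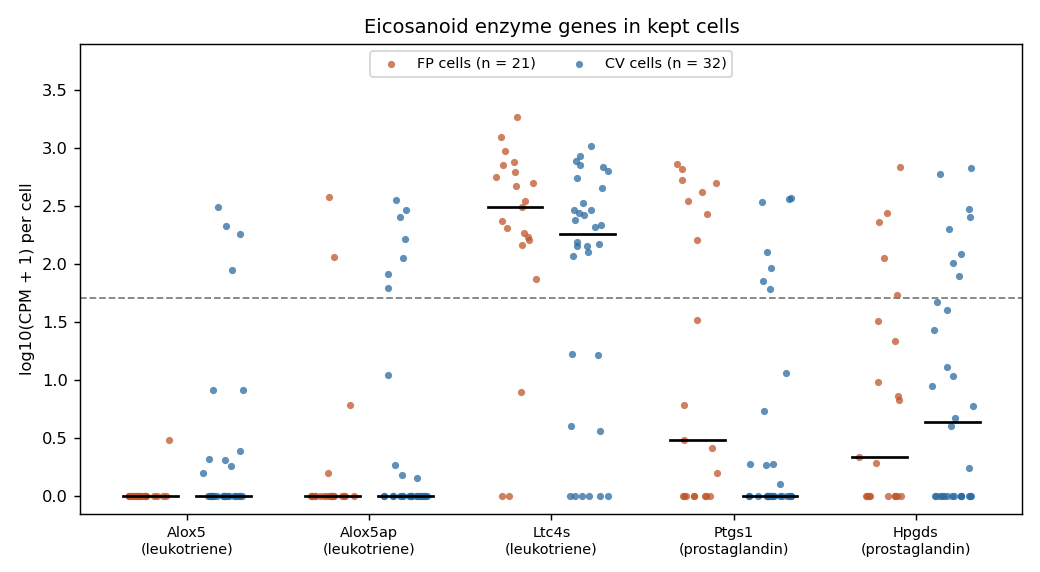
Each point is 1 kept cell (FP orange, 21 cells, left of CV blue, 32 cells), placed in its gene's column by log10(CPM + 1) on the y axis, with the median as a black bar and the limit of 50 CPM as a dashed line. Ltc4s is above the line in 18 FP and 22 CV cells, Alox5 in 0 FP and 4 CV cells, and Ptgs1 in 8 FP and 7 CV cells.

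Ptgs1, the cyclooxygenase gene at the head of the prostaglandin branch, was the only member at least 2-fold higher in FP. It lies on chromosome 2 from 36230426 to 36252272, plus strand. It was on in 8 of 21 FP cells (38.1%, 18.1 to 61.6), at 162, 269, 348, 421, 505, 535, 659 and 732 CPM. It was on in 7 of 32 CV cells (21.9%, 9.28 to 40.0), at 60.8, 71.1, 92.8, 128, 344, 363 and 372 CPM, of which the lowest rested on 6 counts in a cell of 98657 counts. The FP cells with Ptgs1 on therefore reached higher, although the lower FP values lay within the range of the CV cells. The median over all kept cells was 2.09 CPM in FP cells and 0 CPM in CV cells, so most cells of each papilla had little or none. The pooled level was 223 CPM in FP cells (217 to 229) and 57.0 CPM in CV cells (54.3 to 59.8), a ratio of 3.91 (3.70 to 4.13) and a log2 ratio of 1.80. The ratio stayed between 1.42 and 2.21 on the log2 scale over 12 alternatives.

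Ptgs1 was also the member that appeared outside taste cells. Of the 7 keratinocyte-marked FP barcodes, 2 had Ptgs1 on, at 202 and 1383 CPM, while the other members were on in none. The 7 keratin and cornified-envelope genes Krt13, Krt76, Krt16, Krt6a, Krt4, Krtdap and Lor summed to 99.5 to 145 CPM (median 114) in the 8 kept FP cells with Ptgs1 on and to 83.4 to 524 CPM (median 117) in the 13 without, so they were not higher where Ptgs1 was on. All 17 keratinocyte markers summed to 335 to 1327 CPM (median 749) in the cells with Ptgs1 and to 129 to 1669 CPM (median 922) in those without. In CV the 7 genes summed to at most 4.04 CPM in cells with Ptgs1 on and 15.9 CPM in the others, and all 17 markers to 0 to 172 CPM (median 48.4) and 0 to 3235 CPM (median 87.3).

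Hpgds, whose product makes prostaglandin D2, was on in like shares of cells from both papillae. It lies on chromosome 6 from 65117293 to 65144908, minus strand. It was on in 5 of 21 FP cells (23.8%, 8.22 to 47.2), at 53.3, 113, 233, 276 and 686 CPM, against 8 of 32 CV cells (interval 11.5 to 43.4%), at 78.6, 102, 122, 199, 253, 302, 601 and 680.2 CPM. The ranges overlapped almost fully. Between 10 and 50 CPM Hpgds had 2 FP cells and 4 CV cells, more than any other member, but this rests partly on few counts. The FP cell at 20.9 CPM had 6 Hpgds counts. The CV cell at 46.7 CPM had 2 Hpgds counts, as did the lowest of the 4 CV cells. The rest, at 31.3 CPM in FP and at 26.3 and 39.1 CPM in CV, had 46, 49 and 76 Hpgds counts. The pooled level was 68.9 CPM in FP cells (65.5 to 72.4) and 135 CPM in CV cells (130.4 to 139), a log2 ratio of -0.87. With the mean of the per-cell levels in place of the pooled level it was -0.16, and in cells of at least 1000000 counts, where Hpgds was on in 4 of 13 cells from FP and in 8 of 14 from CV, it was -1.51.

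Set against all 10918 genes that reached 10 CPM in 1 library or both, 1 of the 5 members (Ptgs1) was at least 2-fold higher in FP, where 17.0% of all genes were, and 2 (Alox5 and Alox5ap) lay that far in the other direction, where 21.0% of all genes did. The median log2 ratio of all those genes was -0.05. Among 5 genes such counts show nothing particular to them. Of all these genes, 1.46% had a lower log2 ratio than Alox5 and 95.8% a lower one than Ptgs1.

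Counted by branch, the leukotriene branch was on by at least 1 gene in 18 of 21 cells from FP and in 22 of 32 from CV, in each case the cells with Ltc4s on. The prostaglandin branch was on in 11 of 21 FP cells (52.4%, 29.8 to 74.3), against 13 of 32 CV cells (40.6%, 23.7 to 59.4). Each of the 11 FP cells with a prostaglandin gene also had Ltc4s on, and so did 12 of the 13 CV cells. The exception was the shallow CV cell with 6 Ptgs1 counts. The leukotriene branch stood without the other in 7 FP cells (33.3%) and 10 CV cells (31.2%). In 6 of these FP cells and 7 of these CV cells Ltc4s was the only member on. Neither branch was on in 3 FP cells and 9 CV cells, whose median totals were 211586 counts in FP and 121188 counts in CV. Mitochondrial counts made up 39.8 to 68.0% of the total in these 3 FP cells and 6.97 to 88.6% in these 9 CV cells. A cell with a prostaglandin gene thus nearly always had Ltc4s as well, and Ltc4s was on in every deep cell whether it had one or not. With every cell thinned to 71770 counts, which left out 6 CV cells and no FP cell, and a gene on at 3 counts, the leukotriene branch was on in 18 FP cells and 20 CV cells and the prostaglandin branch in 11 FP cells and 13 CV cells.

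Within the prostaglandin branch, however, Ptgs1 and Hpgds were mostly on in different cells. Both were on in 2 of 21 FP cells, where 1.90 would follow from the 2 shares if they were independent, and in 2 of 32 CV cells, against 1.75. Ptgs1 without Hpgds was found in 6 FP cells and 5 CV cells, and Hpgds without Ptgs1 in 3 FP cells and 6 CV cells. These counts lie at what independent shares give, so the data show neither pairing nor exclusion. At 10 CPM or more both genes were on in 4 FP and 4 CV cells, and at 1 count or more in 8 FP and 10 CV cells.

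The whole leukotriene chain of Alox5, Alox5ap and Ltc4s was on in 0 of 21 cells from FP and in 2 of 32 from CV (6.25%, 0.766 to 20.8). The first of these CV cells had 311 CPM Alox5, 62.1 CPM Alox5ap and 144 CPM Ltc4s, and the second had 180.0, 112 and 274 CPM of the same genes. Each Alox5ap cell had Ltc4s on, 2 of 2 in FP and 7 of 7 in CV. These cells had at least 1230364 counts in FP and 1100195 counts in CV. Ltc4s was on in every kept cell of at least 1000000 counts, so this overlap shows no link between the 2 genes. Each of the 4 Alox5 cells of CV had 3 of the other 4 members on, as did 2 CV cells without Alox5, and no cell had all 5 on. Of these 4 cells 3 had Ptgs1 on, against 4 of the other 28, and 3 had Hpgds on, against 5 of 28. The other 28 include many shallower cells. Of the 14 CV cells of at least 1000000 counts, which hold all 4, Ptgs1 was on in 4 and Hpgds in 8.

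**Figure D2:**
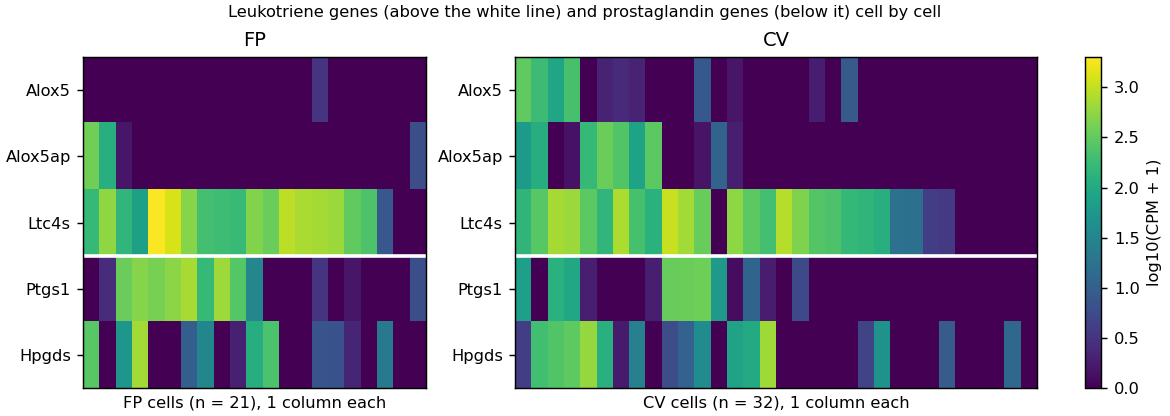
Each column is 1 kept cell, FP on the left and CV on the right, ordered by which genes were on, and colour gives log10(CPM + 1). The Ltc4s row is filled in 18 FP and 22 CV cells, while Alox5 is bright in 4 CV cells only, and Ptgs1 and Hpgds fill mostly different columns.

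The number of members on was larger in deeper cells, with a Spearman rho of 0.67 over 21 FP cells and 0.81 over 32 CV cells, given as descriptions. The 4 Alox5 cells of CV had 1659573 to 2459319 counts, among the deepest kept, and no cell under 914630 counts in FP had a prostaglandin gene on. The part of depth in the joint patterns was not tested. In the 22 CV cells at least as deep as the shallowest FP cell, the pair Alox5 and Hpgds was on together in 3 cells, where 1.45 would follow from the shares, and Alox5 and Ptgs1 in 3 cells, against 1.09. Those 22 include cells shallower than any of the 4 Alox5 cells. Among the 14 CV cells of at least 1000000 counts, which hold all 4, Hpgds was on in 8 and Ptgs1 in 4. The other 8 pairs lay nearer to their expected counts, among them Alox5 with Alox5ap in 2 cells against 1.27, Alox5 with Ltc4s in 4 against 3.64, Ptgs1 with Hpgds in 2 against 2.18 and Alox5ap with Ptgs1 in 1 against 1.91.

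**Figure D3:**
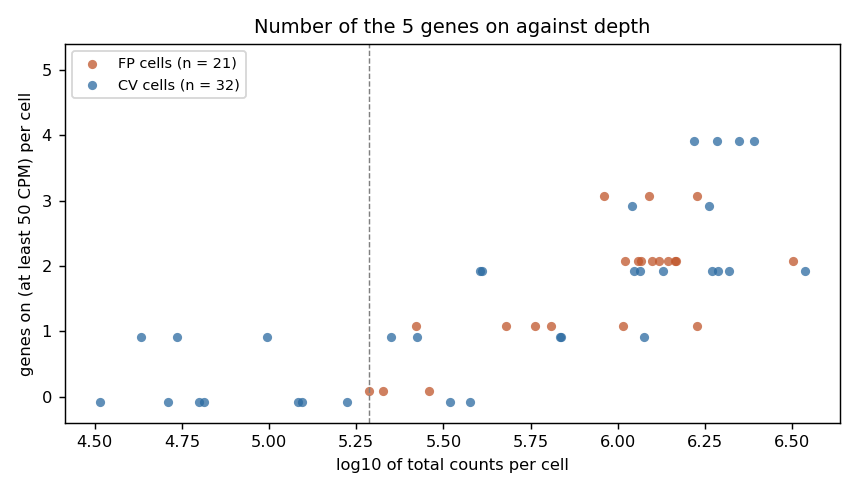
Each point is 1 kept cell placed by log10 of its total counts and by how many of the 5 genes were on (at least 50 CPM), with FP orange just above and CV blue just below each whole number to keep them apart. The dashed line is the lowest FP total (193718 counts), and the 4 CV cells with 4 genes on lie at 1659573 counts or more, on the right.

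Cells with a given member differed in other named genes. The 4 CV cells with Alox5 on all had Mgll on, the gene of monoacylglycerol lipase, which frees arachidonic acid by way of 2-arachidonoylglycerol, at a median of 3515 CPM (193 to 5550.3), against 9 of the other 28 cells (median 4.56 CPM). They also all had Rgs13 on, a regulator of G protein signalling of tuft cells, at a median of 1593 CPM (133 to 2612), against 5 of 28 (median 1.28 CPM). Pou2f3, the transcription factor of type II and tuft cells, stood at 342 to 1012 CPM (median 495) in the 4 cells. In the other 28 it stood at 0 to 1185 CPM (median 15.8) and was on in 10. The leukocyte list, which is Lcp1 alone here, stood at 428 to 1044 CPM (median 753) in these 4 cells and at 0 to 913 CPM (median 33.3) in the other 28, and its defining gene Ptprc was at 0. The macrophage markers summed to at most 1.35 CPM in the 4 cells. In CV cells of at least 1000000 counts, Mgll was on in 4 of 4 cells with Alox5 and 4 of 10 without, and Rgs13 in 4 of 4 and 3 of 10. Pou2f3 was on in 11 of these 14 cells.

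Hpgds in CV went with Chat, the gene of acetylcholine synthesis, which was on in 6 of 8 cells with Hpgds (median 163 CPM) and in 4 of 24 without (median 0 CPM). In the deep CV cells these were 6 of 8 and 2 of 6, a smaller gap. The macrophage markers summed to 0 to 180.0 CPM (median 0.667) in the 8 CV cells with Hpgds and to 0 to 23.4 CPM (median 0) in the 24 without. The part of the 1 cell at 180.0 CPM was not tested. Chat had 0 counts in FP, where Hpgds was on in 5 cells without it. Ltc4s was on in each of the 10 CV cells with Chat, but 8 of them were among the 14 deep CV cells, all of which had Ltc4s on.

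Ptgs1 went with Mgll in both papillae. In FP, Mgll was on in 4 of 8 cells with Ptgs1 (median 37.2 CPM, 0 to 127) and in 0 of 13 without (at most 8.38 CPM), and in cells of at least 1000000 counts in 4 of 7 and 0 of 6. In CV, Mgll was on in 6 of 7 cells with Ptgs1 (median 1625 CPM) and 7 of 25 without (median 4.48 CPM), and in the deep cells in 4 of 4 and 4 of 10. Chat was on in 5 of 7 CV cells with Ptgs1 and 5 of 25 without. Tas1r3, the shared sweet and umami receptor subunit, was on in 4 of 8 FP cells with Ptgs1 and 4 of 13 without, and in 1 of 7 CV cells with Ptgs1 and 6 of 25 without. Gnat3 itself, used to keep the cells, had a median of 5508 CPM in FP cells with Ptgs1 and 4819.7 CPM in those without.

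**Figure D4:**
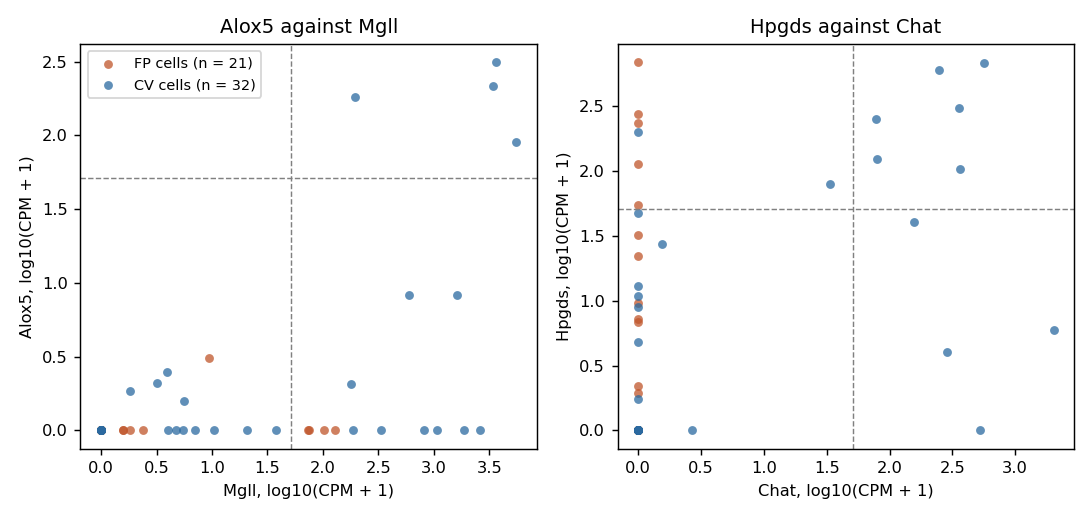
Each point is 1 kept cell (FP orange, CV blue) placed by log10(CPM + 1) of 2 genes, Alox5 against Mgll on the left and Hpgds against Chat on the right, with 50 CPM as dashed lines. The 4 CV cells above the Alox5 line are all right of the Mgll line, and 6 of the 8 CV cells above the Hpgds line are right of the Chat line.

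Genes whose levels followed a member most closely over cells were found among those on in at least 5 cells, 3495 in FP and 4008 in CV. For Ltc4s the 3 highest Spearman rho values included those of Panx1 (0.74), a gene of ATP-permeable membrane channels, and Srsf7 (0.67) over 21 FP cells, and over 32 CV cells they were those of Brd1 (0.78), the interleukin-4 receptor gene Il4ra (0.75) and Dnajb6 (0.75). In the 22 deeper CV cells the last 3 were 0.62, 0.52 and 0.56. For Ptgs1 they were Paqr4 (0.81), Cops5 (0.81) and the GABA receptor subunit gene Gabrq (0.80) in FP and Olfm3 (0.79), Prkcd (0.74) and Ankrd12 (0.71) in CV. The deeper CV cells gave 0.83, 0.76 and 0.62 for these CV genes. For Hpgds they were Pcmtd2 (0.76), Cdc123 (0.75) and Timm10b (0.75) in FP and Id2 (0.81), Rsph1 (0.80) and Tgfa (0.77) in CV. Cdc123 and Hpgds were on together in only 2 FP cells. The deeper CV cells gave 0.70 for Id2, 0.69 for Rsph1 and 0.74 for Tgfa. For Alox5ap in CV they were the cyclic GMP phosphodiesterase gene Pde9a (0.83), Sf3a2 (0.81) and Psma7 (0.78), and 0.74, 0.85 and 0.76 in the deeper cells. Alox5, and Alox5ap in FP, were on in too few cells for this. No gene was among the 3 for the same member in both papillae. The cells share a library and these are the highest values of all the genes compared.

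The wider eicosanoid list held 65 genes in 6 roles, of which 49 had a row in the tables and 25 reached 10 CPM in either library. Of the 25, 2 stood at least 2-fold higher in FP, and 11 did so in CV. With no Gnat3 limit on cells the split was 5 in FP and 8 in CV, and with the mean of the per-cell levels 4 in FP and 11 in CV. Their median log2 ratio was -0.81 (-0.94 with no pseudocount and values below 3 pooled counts set to that floor). The same shares over all genes were 17.0% for FP and 21.0% for CV, and the median was -0.05. Without the 5 members 1 of 20 was higher in FP and 9 were in CV, with a median of -0.75 (-0.88 with no pseudocount). With 1 library per papilla the list was not tested.

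Of 6 genes that free arachidonic acid and reached 10 CPM, 4 stood at least 2-fold higher in CV, where 21.0% of all genes did. None did in FP, where 17.0% of all genes did. Marker lists of other cells also differed between the libraries: the tuft list summed to 1080.1 CPM in FP cells and 2605 CPM in CV cells, the type III list to 2.16 CPM in FP cells and 43.9 CPM in CV cells, and the keratinocyte list to 898 CPM in FP cells and 365 CPM in CV cells. The endothelial gene Pecam1 stood at 0 CPM in FP cells and 36.3 CPM in CV cells. Their part in the split of the eicosanoid list between FP and CV was not tested. Mgll had 28.0 CPM in FP cells and 1325 CPM in CV cells, and was on in 4 FP cells and 13 CV cells. Pla2g16, the adipose phospholipase A2 gene, had 509 CPM in FP cells and 899 CPM in CV cells, on in 19 FP cells and 20 CV cells. Daglb, which makes 2-arachidonoylglycerol, had 0.795 CPM in FP cells and 25.3 CPM in CV cells, but was on in only 2 CV cells, the higher at 1380.0 CPM. The phospholipase genes Pla2g4b and Pla2g12a passed 2-fold narrowly, at log2 ratios of -1.11 and -1.07. Pla2g4b was on in 4 CV cells and Pla2g12a in 3. Pla2g4a, the cytosolic phospholipase A2 that feeds eicosanoid synthesis in many cells, had 0.662 CPM in FP cells and 0.406 CPM in CV cells and was on in no cell of either papilla.

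Of 7 leukotriene genes that reached 10 CPM, 4 stood at least 2-fold higher in CV, where 21.0% of all genes did, while 3 lay within 2-fold. Mgst3, a microsomal glutathione transferase of the family of Alox5ap and Ltc4s, had 15.9 CPM in FP cells and 336 CPM in CV cells, on in 1 FP cell and 10 CV cells. Cotl1, whose product binds 5-lipoxygenase, had 1.90 CPM in FP cells and 27.2 CPM in CV cells, on in 0 FP and 5 CV cells. Lta4h, which leads to leukotriene B4 instead of C4, had 75.6 CPM in FP cells and 48.1 CPM in CV cells, and Abcc1, an exporter of leukotriene C4, had 38.9 CPM in FP cells and 48.9 CPM in CV cells.

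Of 8 prostaglandin genes that reached 10 CPM, 2 were at least 2-fold higher in FP, 1 in CV and 5 within 2-fold. Over all genes 17.0% were that much higher in FP and 21.0% in CV. Beside Ptgs1, the prostamide and prostaglandin F synthase gene Fam213b had 51.9 CPM in FP cells and 1.32 CPM in CV cells, on in 4 FP and 0 CV cells. The prostaglandin E synthase genes differed among themselves: Ptges had 1.24 CPM in FP cells and 14.1 CPM in CV cells, Ptges2 had 32.6 CPM in FP cells and 14.2 CPM in CV cells, and Ptges3, also an Hsp90 co-chaperone, had 185 CPM in FP cells and 276 CPM in CV cells. The exporter gene Abcc4 had 67.2 CPM in FP cells and 41.5 CPM in CV cells.

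Of the genes of prostaglandin breakdown, Hpgd had no count in FP cells and 22.7 CPM in CV cells, where it was on in 1 cell, at 368 CPM, while Ptgr2 had 38.5 CPM in FP cells and 22.2 CPM in CV cells. Of the other lipoxygenases, Alox8 had 15.9 CPM in FP cells and 94.5 CPM in CV cells, on in 1 FP cell and 8 CV cells, while Alox15 had 0.0883 CPM in FP cells and 0.0677 CPM in CV cells. None of the 9 leukotriene and prostaglandin receptors with a row in the tables reached 10 CPM in either papilla, and none was on in any kept cell. The highest receptor level was that of the prostaglandin F receptor gene Ptgfr, at 1.55 CPM in FP cells and 0.948 CPM in CV cells.

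**Figure D5:**
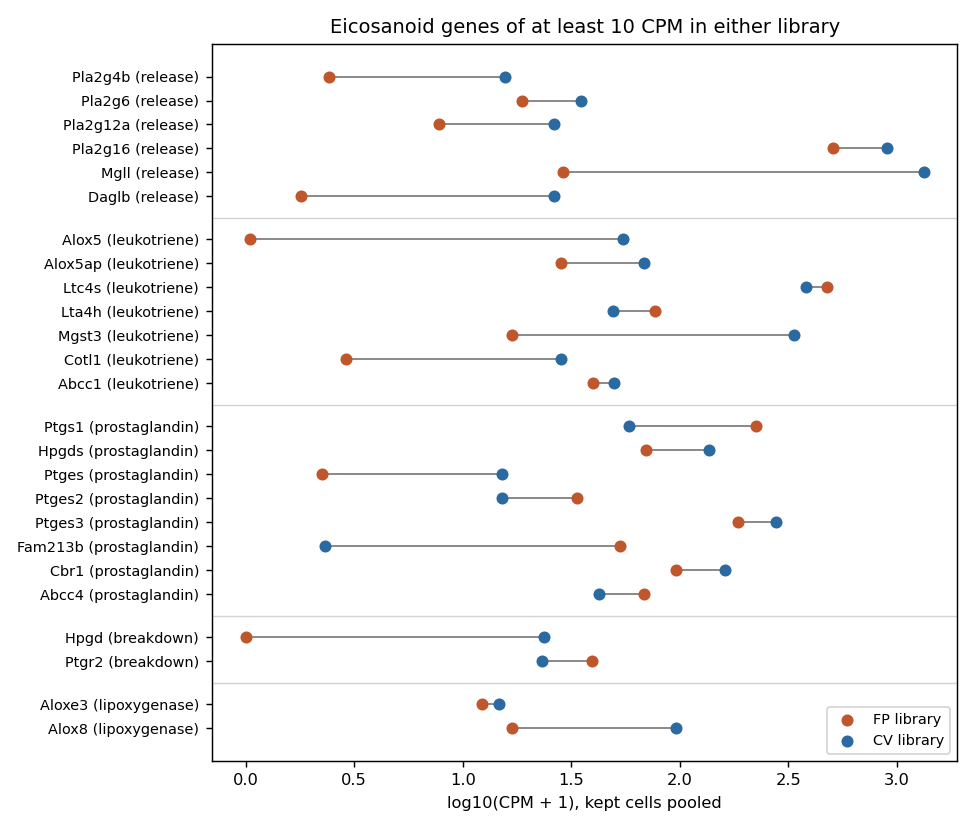
Each row is 1 eicosanoid gene of at least 10 CPM in either library, grouped by role, with its level in the pooled kept cells of FP (orange) and CV (blue) as log10(CPM + 1). Of 25 genes 11 are at least 2-fold higher in CV on the log2(CPM + 10) scale, among them Mgll, Mgst3 and Alox5, and 2 in FP, Ptgs1 and Fam213b.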

How the data were processed

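Values in the deposited files are raw counts, whole numbers for each gene in each barcode. The submitters' processing notes name mm10, cutadapt 2.10, Bowtie2 2.3.4.1 and Seurat 2.3.4. Per the series design, cDNA from BD Rhapsody beads was amplified by TAS-Seq, reads were aligned to mouse reference RNA and the authors corrected the counts for sequencing errors. The sources used here do not give whether molecular barcodes were collapsed or whether counting used strand. Alox5ap, Ltc4s, Ptgs1 and Hpgds overlap gene models on the other strand.

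The series design words its Gnat3 limit loosely, and it was read as a natural logarithm. Its mitochondrial and ribosomal RNA limits served only as an alternative, and no doublet caller was run. Counts of the kept cells were summed by library and divided by their total to give CPM. Intervals are exact: Poisson for levels, conditional binomial for ratios and Clopper-Pearson for shares (Python 3.11.15, scipy 1.17.1). A gene listed in 1 table was taken as 0 in the other. Levels were compared mainly between papillae and cells. Where genes or branches were set side by side, as in the cells on at 50 CPM, no correction for differences in capture between genes was made. The calculation was tested on simulated data.

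The members, lists, markers and the limit of 50 CPM were chosen with earlier results of these data known. Named genes were the members, list genes of at least 10 CPM, markers, companions such as Mgll and Chat, and the 3 closest genes by Spearman rho, of which 1 is not reported here. Pla2g4a, Alox15 and Ptgfr, below that level, were named after their values were seen. Positions are from GENCODE M21. Alternatives were other pseudocounts, pooling, totals, cell limits, thinning and rules for a gene being on.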

Additional observations from a re-analysis of the deposited data

Results flagged for a closer look

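Barcodes left out of the comparisons held some of the members above the limit of 50 CPM. A CV barcode of 4088415 counts, the deepest of the library, was left out because Gnat3 stood at 14.9 CPM. It had 219.6 CPM Alox5, 1979 CPM Ltc4s and 104 CPM Hpgds, but 0 CPM Alox5ap and 0.245 CPM Ptgs1. The same barcode had 2211 CPM Tas1r2, 632 CPM Tas1r3, 683 CPM Kit, 1369 CPM Trpm5 and 370.3 CPM Pou2f3, and its Mgll level was 2.45 CPM, unlike the kept cells with Alox5.

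Ltc4s was above the limit in 3 more left-out barcodes, at 365 CPM in an FP barcode of 252069 counts with 66.0% mitochondrial counts, at 3106 CPM in a CV barcode of 257589 counts with 94.8% mitochondrial counts, and at 540.5 CPM in a CV barcode of 46257 counts. Ptgs1 was above it in 2 FP barcodes with keratinocyte markers, at 202 CPM and 1383 CPM, where Krt13 stood at 29449 and 62489 CPM.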

How the results depend on the processing

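Over 12 alternatives the log2 ratio of FP over CV ran from -5.71 to -1.81 for Alox5, from -1.78 to -0.61 for Alox5ap, from 1.42 to 2.21 for Ptgs1 and from -1.51 to -0.16 for Hpgds, each in 1 direction, while Ltc4s ran from -0.78 to 0.94. Among the values under all alternatives, those of counts included, 191 lay within the limits set for the main value, 58 moved beyond them and 1 turned its direction. Counts of cells were compared as numbers and not as shares, so an alternative with fewer cells could move a count for that reason alone. The cause of each was not tested.

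With a pseudocount of 1 CPM the log2 ratio was -5.71 for Alox5, -1.27 for Alox5ap and 1.95 for Ptgs1. With the mean of per-cell CPM it was -1.81 for Alox5, -0.61 for Alox5ap, 0.71 for Ltc4s and -0.16 for Hpgds. Without mitochondrial and ribosomal RNA in the totals, Alox5 was at -2.86. With no Gnat3 limit it was -2.94 for Alox5, -1.20 for Alox5ap, -0.78 for Ltc4s, which turned round, and -1.23 for Hpgds. Leaving out the deepest 10% of cells, it was -2.48 for Alox5, -1.33 for Alox5ap, 0.94 for Ltc4s, 1.63 for Ptgs1 and -0.42 for Hpgds. In cells thinned to 71770 counts (0 FP and 6 CV cells left out) it was -2.22 for Alox5, 0.49 for Ltc4s, 1.42 for Ptgs1 and -0.34 for Hpgds. Without the highest cell of each library it was -2.28 for Alox5, -1.78 for Alox5ap, 0.06 for Ltc4s, 2.21 for Ptgs1 and -1.21 for Hpgds.

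The next 2 alternatives, and that of cells of at least the lowest FP total, were chosen after seeing the data. Without the run of adjoining CV barcodes the log2 ratio was -2.74 for Alox5, -0.89 for Alox5ap and 0.37 for Ltc4s. In cells of at least 1000000 counts it was -2.86 for Alox5, 1.95 for Ptgs1 and -1.51 for Hpgds. The leukotriene branch was on in 14 of the 14 CV cells of that depth, against 22 of all 32 kept CV cells.

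At 1 count or more, the prostaglandin branch was on in 17 FP and 21 CV cells, and both branches in 17 FP and 20 CV cells. Genes of the wider list at least 2-fold higher were 4 in FP and 11 in CV with the mean of per-cell CPM and 5 in FP and 8 in CV with no Gnat3 limit, against 2 in FP and 11 in CV. No paired analysis was possible because each papilla had 1 library.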
